A study of Mus musculus with 2 samples.

Results

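The Runx family of transcription factors was examined in maps of 5-hydroxymethylcytosine (5hmC) from mouse embryonic fibroblasts (MEFs), cells grown out of C57BL/6 embryos at day 13.5. The 3 family members were taken as fixed mm9 windows, chr16:92596000-92832000 for Runx1, chr17:44627000-44957000 for Runx2 and chr4:134671000-134740000 for Runx3, and every 5hmC peak that shared a base with a window was counted. The windows held 14 of the 6726 peaks called in MEFs at passage 5 and 64 of the 60157 peaks called in MEFs at passage 0. Both groups were C57BL/6 MEFs with no treatment named, harvested after 5 passages or before any passage, with 1 library each. Fragments with 5hmC were captured by GLIB, a chemistry that adds a glucose to the hydroxymethyl group and hangs a biotin on it. The sources used here do not give the number of embryos behind each library, and peak lists hold no expression values by which the fibroblast identity could be checked.

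Runx proteins bind DNA through the Runt domain, together with the partner protein CBFβ, and they activate or repress genes depending on the cofactors they recruit. Runx1 is known for its need in the formation of blood stem cells, Runx2 is the master regulator of bone-forming osteoblasts, and Runx3 acts in T lymphocytes and sensory neurons. All 3 genes are read from a distal promoter, P1, and a proximal promoter, P2, which give proteins with different first residues. 5hmC is made from 5-methylcytosine by the TET enzymes and is frequent in the bodies of active genes and at enhancers.

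A feature that the windows did not use, a tandem copy of the Runx binding motif, is shown first because it is shared by the family. RefSeq windows on GRCm38.p6, from 250 bases before to 50 bases after a transcript start, were at hand for the distal start of all 3 genes and for the proximal start of Runx1 and Runx3. The letters AACCACA, which hold the core of the Runx motif, were searched on both strands. The longest run of letters shared by the 3 distal windows was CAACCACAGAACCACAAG, 18 bases that hold AACCACA at 2 places with 1 base between the copies. This search was added after the sequences were seen. The run occurred in 4 of 32851 promoter windows (0.0122%), against 1731 windows (5.27%) with at least 1 single AACCACA. The 4 were the distal windows of Runx1, Runx2 and Runx3 and that of Gm16225, which overlaps the distal window of Runx3 on the other strand. The hits in the 3 Runx windows were fixed by how the run was chosen, and a longer string is rarer than a short one. Tandem copies with other bases around or between them were not counted. The 0.0122% therefore does not measure how particular a tandem motif is to the family. The stretches of 30 bases around the run are given 5′ to 3′ with the shared run in capitals.
Runx1, chr16:92826025-92826054 (GRCm38.p6, minus strand), run beginning 26 bases after the first transcribed base: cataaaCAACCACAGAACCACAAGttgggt
Runx2, chr17:44814583-44814612 (GRCm38.p6, minus strand), run beginning 21 bases after the first transcribed base: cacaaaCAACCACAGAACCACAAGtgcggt
Runx3, chr4:135120503-135120532 (GRCm38.p6, plus strand), run beginning 136 bases before the first transcribed base: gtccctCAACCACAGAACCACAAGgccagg

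The promoters also differed in CpG dinucleotides, the main substrate of DNA methylation and hence of 5hmC. The 300-base distal windows held 2 CpGs in Runx1, 2 in Runx2 and 8 in Runx3, and the proximal windows held 35 in Runx1 and 45 in Runx3. The median over all promoter windows was 7. The 250 bases before each start of Runx1 show the contrast, with every CpG in capitals.
Runx1 distal, chr16:92826075-92826324 (GRCm38.p6, minus strand): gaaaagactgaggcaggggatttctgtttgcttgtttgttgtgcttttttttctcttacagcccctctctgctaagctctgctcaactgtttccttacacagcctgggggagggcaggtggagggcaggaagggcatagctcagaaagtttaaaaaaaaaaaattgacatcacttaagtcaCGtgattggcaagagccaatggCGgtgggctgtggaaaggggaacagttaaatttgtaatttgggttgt
Runx1 proximal, chr16:92697330-92697579 (GRCm38.p6, minus strand): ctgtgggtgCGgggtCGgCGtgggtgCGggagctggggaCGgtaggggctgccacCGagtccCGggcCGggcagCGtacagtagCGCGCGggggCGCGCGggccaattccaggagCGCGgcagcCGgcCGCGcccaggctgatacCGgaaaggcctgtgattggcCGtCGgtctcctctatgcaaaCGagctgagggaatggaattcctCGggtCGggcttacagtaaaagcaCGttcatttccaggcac
The peaks are in mm9, a different build, so the positions of these sequences cannot be set against those of the peaks, even where the numbers look alike. For the same reason, which peaks lie in exons, introns or untranslated regions was not analysed here. Only the strand was taken over, which puts the 5′ end of the Runx1 and Runx2 windows at the high coordinate and that of the Runx3 window at the low one.

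The family members differed in how many 5hmC peaks were called at passage 5. Runx1 had the most, Runx2 fewer and Runx3 none. Runx1 had 9 peaks at passage 5 against 33 at passage 0, a ratio of 27.3% (95% counting interval 11.5% to 58.3%). Runx2 had 5 peaks at passage 5 against 25 at passage 0, or 20% (5.98% to 53.2%). Runx3 had no peak at passage 5 against 6 at passage 0, with an interval for the ratio that reached 84.9%. Over the whole lists this ratio was 11.2%, a value just below the interval of Runx1 and inside those of Runx2 and Runx3. Intervals for other settings are not given, so a separation of Runx1 from the lists is not shown beyond this setting. The 3 intervals overlap widely, so an order among the genes is not shown. The intervals come from the exact binomial, take each peak as a separate event and reflect nothing beyond counting error. There is no replicate, and the read depth of either library is unknown. In DNA from whole cultures, fewer cells with the mark at a site cannot be told apart from less of it per cell.

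**Figure D1:**
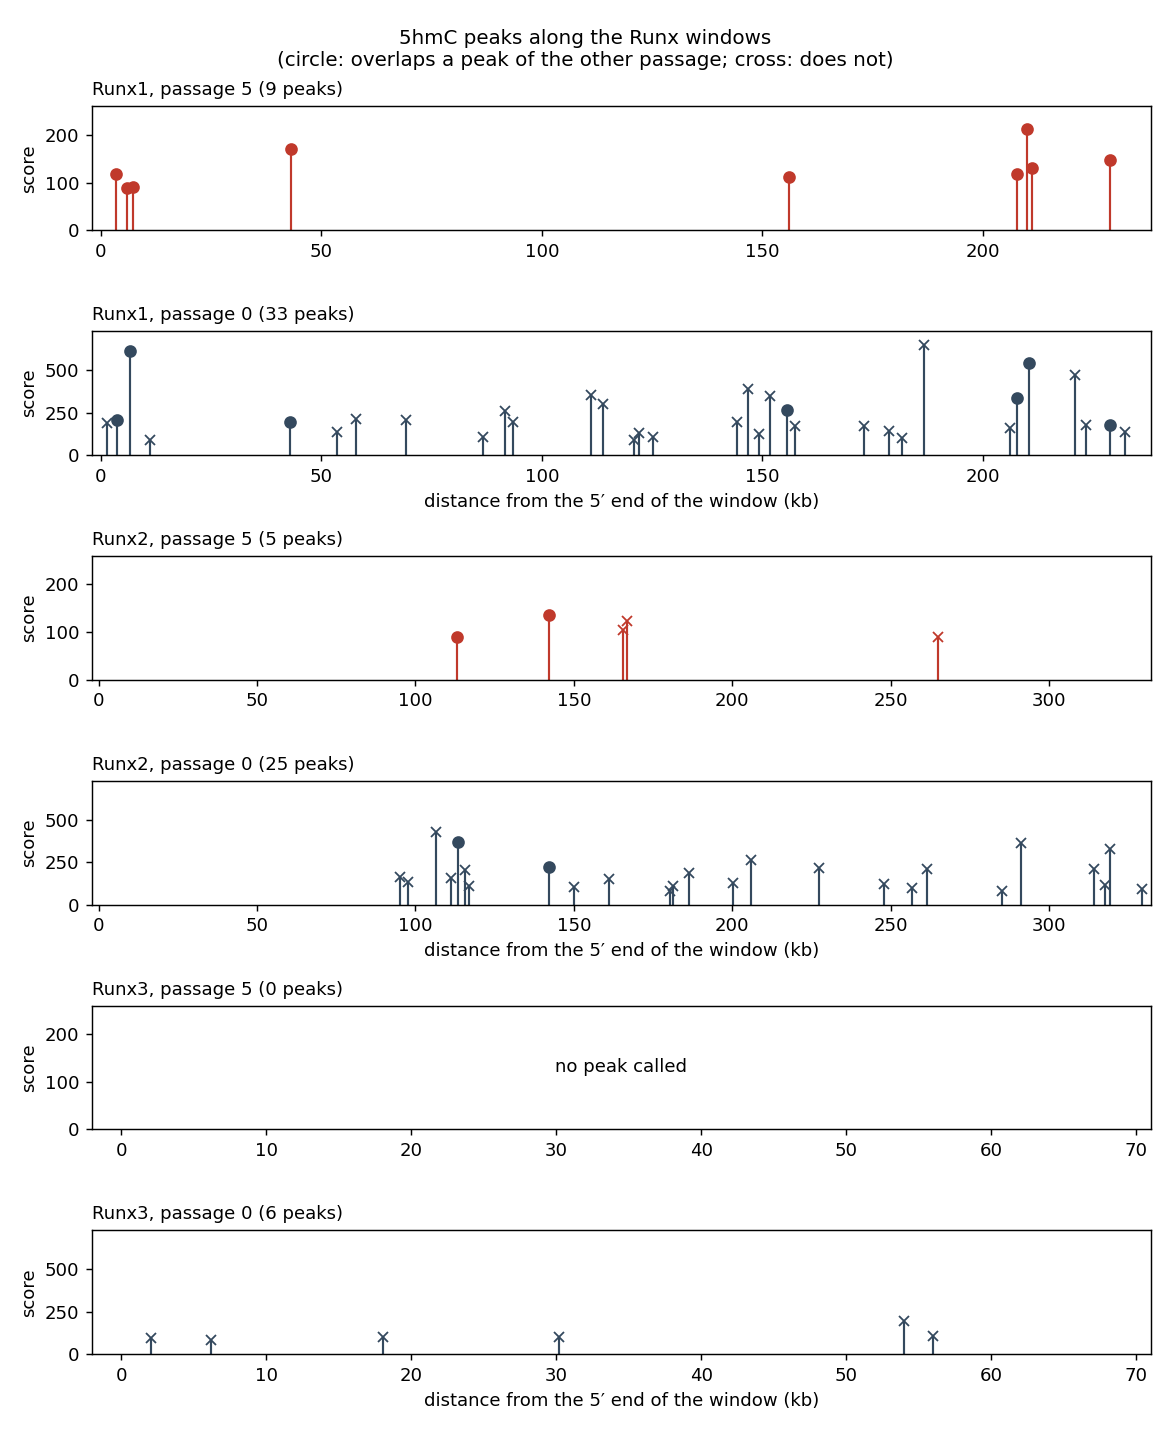
Peaks of each Runx window at passage 5 (red, upper panel of each pair) and passage 0 (dark, lower panel), by the distance of the peak midpoint from the 5′ end of the window in kb and by the authors' score, whose axis differs between passages because scores are compared only within a list. Circles overlap a peak of the other passage and crosses do not; all 9 Runx1 peaks at passage 5 are circles, 3 of 5 at Runx2 are crosses, and Runx3 has none.

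Covered length showed the same order as peak number. At Runx1, passage 5 peaks covered 5987 bases (2.54% of the window) and passage 0 peaks covered 40841 bases (17.3%). At Runx2, peaks covered 2675 bases at passage 5 (0.811%) against 26038 at passage 0 (7.89%). Runx3 had 4839 covered bases at passage 0 (7.01%). For scale, peaks covered 0.157% of the autosomes at passage 5 and 2.30% at passage 0, counted up to the last peak of each chromosome. The passage 5 length was 14.7% of the passage 0 length at Runx1 and 10.3% at Runx2, against 6.84% over the whole lists. The Runx2 value was 6.69% among peaks with a score of at least 100. Peaks were narrower at passage 5 in both genes, with median widths of 668 bp at passage 5 and 1025 bp at passage 0 for Runx1, and of 569 bp at passage 5 and 937 bp at passage 0 for Runx2. The list medians were 563 bp at passage 5 and 850 bp at passage 0.

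Each of the 3 genes lay in DNA with more peaks than the autosomal mean at passage 0. Runx1 had 3.81 peaks per 100 kb at passage 5 and 14.0 at passage 0, Runx2 had 1.52 at passage 5 and 7.58 at passage 0, and Runx3 had 0 at passage 5 and 8.70 at passage 0. The autosomes had 0.272 peaks per 100 kb at passage 5 and 2.44 at passage 0. Chromosomes 1 to 19 were also laid out in tiles as long as each window. At passage 5, 15 of 10439 tiles (0.144%) held at least the 9 peaks of Runx1, and at passage 0, 150 tiles (1.44%) held at least its 33. For Runx2, 276 of 7462 tiles (3.70%) held at least 5 peaks at passage 5 and 599 (8.03%) at least 25 at passage 0. At Runx3, 3373 of 35723 tiles (9.44%) held at least its 6 passage 0 peaks, and 86.1% of tiles had no passage 5 peak. The tile shares describe where the windows rank and are no test. Most tiles as short as the Runx3 window therefore had no passage 5 peak either.

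The surroundings differed from gene to gene. RefSeq gene order places a Clic and an Rcan gene on the 3′ side of every Runx gene, a neighbourhood that the 3 loci share: Clic6 and Rcan1 after Runx1, Clic5 and Rcan2 after Runx2, Clic4 and Rcan3 after Runx3. The next coding genes towards the 5′ side, by order of start position, are Setd4, Supt3 and Syf2. That order does not show whether a neighbour overlaps a Runx gene. Whether each of these genes lies inside the 500 kb, or reaches into a window, in mm9 was not analysed here. The flanks of Runx1 together had 13 peaks at passage 5 against 111 at passage 0, or 11.7% (6.05% to 20.9%), close to the list-wide 11.2%. Its 5′ side held 9 passage 5 peaks and 58 passage 0 peaks, and its 3′ side held 4 passage 5 peaks and 53 passage 0 peaks. The flanks of Runx2 had 2 peaks at passage 5 against 49 at passage 0, or 4.08% (0.481% to 15.6%). Both passage 5 peaks lay on the 3′ side, and the 5′ side held none against 27 at passage 0. The flanks of Runx3 held 14 passage 5 peaks and 106 passage 0 peaks, or 13.2% (6.98% to 23.2%), with 9 passage 5 peaks on the 5′ side and 5 on the 3′ side.

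**Figure D2:**
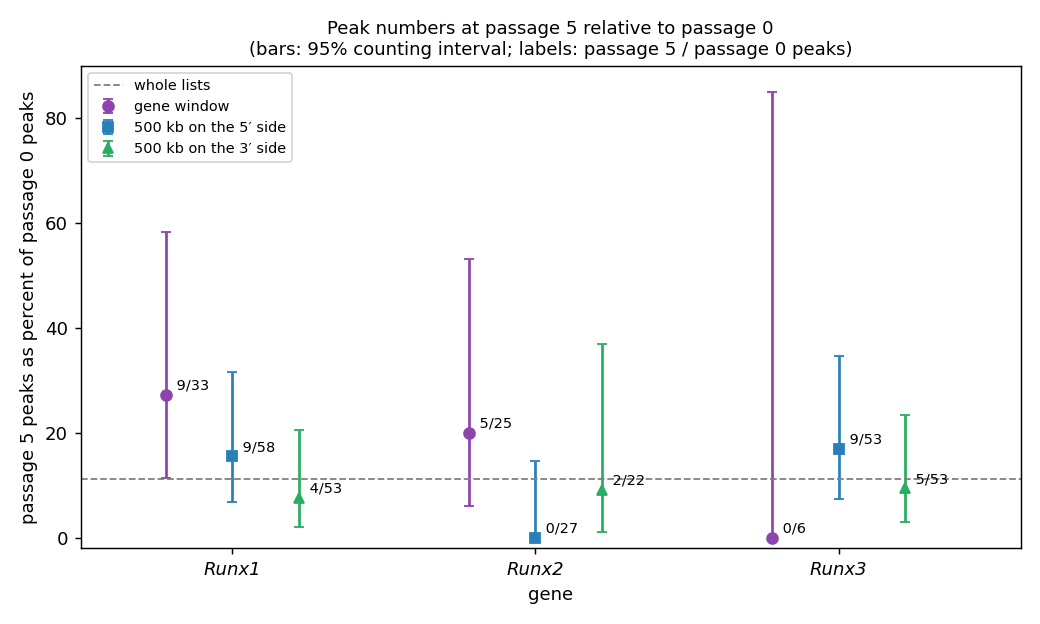
Passage 5 peaks as a percent of passage 0 peaks (vertical axis) in each gene window, in the 500 kb on its 5′ side and in the 500 kb on its 3′ side, with bars for the 95% counting interval and the passage 5 and passage 0 counts beside each point. The Runx1 window (27.3%) and the Runx2 window (20%) lie above their flanks, Runx3 is at 0, and the dashed line marks the whole lists at 11.2%.

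The peak density of Runx1 over that of its flanks was 2.93 at passage 5 (counting interval 1.11 to 7.42). At passage 0 it was 1.26 (0.827 to 1.87). For Runx2 it was 7.58 at passage 5 (1.24 to 79.6) and 1.55 at passage 0 (0.915 to 2.55). Both passage 0 intervals include 1, so neither window is shown to be denser than its flanks of 500 kb at passage 0. Over the other settings the Runx1 value at passage 0 ran from 1.08 (flanks of 250 kb) to 1.73 (scores of at least 100). The Runx2 value at passage 0 ran from 1.53 (flanks of 1 Mb) to 2.23 (flanks of 250 kb). Intervals are not given for those settings, so an excess confined to passage 5 is not shown. The passage 5 value of Runx2 rests on 5 peaks against 2 and was 3.79 with flanks of 1 Mb. Runx3 was at 0 times its flanks at passage 5 and at 0.82 times at passage 0 (counting interval 0.29 to 1.85), and the passage 0 value was 1.09 with flanks of 1 Mb, so it is not shown to be denser or sparser than its surroundings. The nearest peaks outside the windows show how much the borders matter. The first passage 5 peak beyond Runx3 lay 5.59 kb past its 3′ end, at chr4:134745593-134746237 with a score of 123, and it overlapped a passage 0 peak with a score of 136. On the 5′ side of Runx3 the first one lay 18.9 kb away. The first passage 5 peaks beyond Runx1 lay 73.8 kb away on the 5′ side and 42.3 kb away on the 3′ side. At Runx2 the first one on the 5′ side was 777 kb away, and on the 3′ side it was 30.6 kb away. The first passage 0 peaks outside lay 39.7 kb (5′) and 10.7 kb (3′) from Runx1, and 199.9 kb (5′) and 44.1 kb (3′) from Runx2. The passage 0 peaks nearest inside the borders are named with their genes below.

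**Figure D3:**
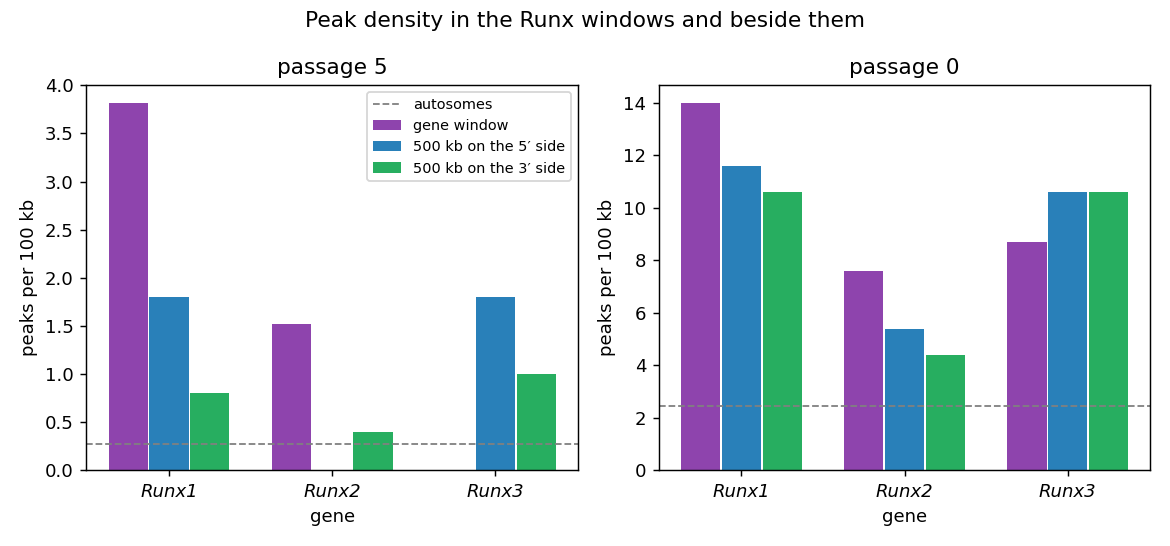
Peaks per 100 kb (vertical axes, which differ) at passage 5 (left) and passage 0 (right) in each Runx window and in the 500 kb on either side; the dashed line is the autosomal mean. Runx1 is the densest window at both passages (3.81 at passage 5 and 14.0 at passage 0), and Runx3 has no bar at passage 5.

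The score that the authors deposited for each peak was read only within a list, as the percent of peaks in that list with a lower score. All 9 passage 5 peaks of Runx1 overlapped a passage 0 peak (exact interval 66.4% to 100%), against a background of 69.9% of the passage 5 list. In the other direction, 7 of 33 passage 0 peaks of Runx1 had a passage 5 peak. That share of 21.2% (8.98% to 38.9%) stands beside a background of 7.63% of the passage 0 list and 9.01% in the Runx1 flanks (4.41% to 15.9%). The intervals of window and flanks overlap. Of the 33 Runx1 peaks, 27 lay above the list's median score of 129, and their median was 193. The passage 0 list was cut into classes of 10% by score, and the share with a passage 5 peak in each class was applied to the scores of these 33 peaks, which came to 3.95 peaks. That is 12.0% of the 33 and lies inside the window's interval of 8.98% to 38.9%, so a difference from it is not shown. In the Runx1 flanks the same step gave 8.54 peaks, and 10 of the 111 passage 0 peaks had a passage 5 peak. What part the scores have was not tested.

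Runx1 carried its passage 5 peaks in both ends of the window, with a long stretch between them. At the 5′ end, 3 peaks lay within 4.57 kb. They were chr16:92828189-92829061 with a score of 119, chr16:92825911-92826504 with 88.6 and chr16:92824491-92825066 with 89.9, and their midpoints lay 3.38, 5.79 and 7.22 kb from the window's 5′ end. Within the passage 5 list these are middling to low values, since 52.1%, 1.68% and 5.61% of that list scored lower. The last pair overlapped a single passage 0 peak, chr16:92824330-92826407, which was 2078 bp wide with a score of 615, above 99.0% of its list. The outermost passage 0 peak, chr16:92830258-92830994, had a score of 186 and no passage 5 peak.

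Further into Runx1, the passage 5 peak chr16:92788445-92789158 had a score of 170 and shared 63.4% of its length with a passage 0 peak, the lowest share among the 9. The next one, chr16:92675774-92676244 with a score of 112, lay 112 kb away. That stretch without a passage 5 peak held 15 passage 0 peaks with scores of 86.9 to 386 and a median of 194. Of these, 4 were in the top 10% of the passage 0 list by score. Their median lay close to that of all 33 passage 0 peaks of the window, 193.

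At the 3′ end of Runx1, 4 passage 5 peaks lay between 208 and 229 kb from the 5′ border. The highest-scoring passage 5 peak of the family was here, chr16:92621578-92622552, 975 bp wide with a score of 213, above 94.5% of its list. It and chr16:92620766-92621185, with a score of 131, lay inside the passage 0 peak chr16:92620359-92622945, which scored 542. The others were chr16:92624040-92624735 with a score of 119, inside a passage 0 peak with 338, and chr16:92602785-92603452 with 147, inside one with 177. The passage 0 peak nearest the 3′ border, chr16:92599411-92600253, had a score of 138 and no passage 5 peak. In all, 6 of the 9 passage 5 peaks of Runx1 lay wholly inside a passage 0 peak. No such share was computed for the whole list or the flanks, so this is not shown to be particular to Runx1. Passage 5 peaks were also narrower over the whole lists, with medians of 563 bp at passage 5 and 850 bp at passage 0.

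The strongest passage 0 peak of Runx1 was not called at passage 5. It lay at chr16:92643770-92647132, was the widest in the window at 3363 bp, scored 649 (above 99.2% of the list) and was 19034 bases from the nearest passage 5 peak. The next in score, with scores of 615 and 542, each overlapped a pair of passage 5 peaks. Of the 9 Runx1 peaks in the top 10% of the passage 0 list by score, 3 had a passage 5 peak, against 24.4% of that class in the whole list. Scores of passage 0 peaks with a passage 5 peak ran from 177 to 615 with a median of 266, and those of the others ran from 86.7 to 649 with a median of 175, so the ranges overlap.

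**Figure D4:**
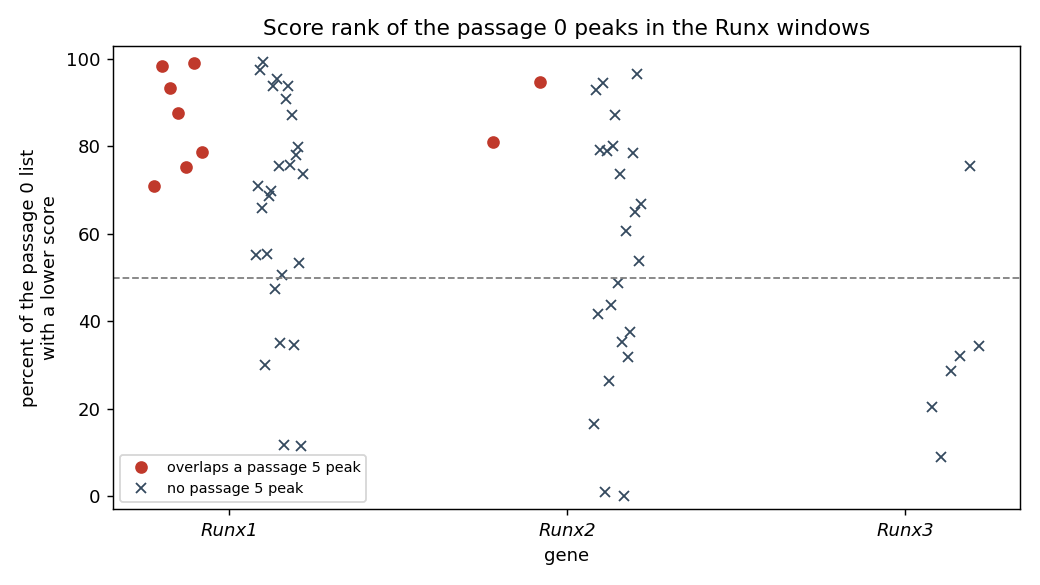
Score rank of each passage 0 peak in the Runx windows, as the percent of the passage 0 list with a lower score (vertical axis), for peaks that overlap a passage 5 peak (red circles) and those that do not (dark crosses), spread sideways for legibility; the dashed line marks 50%. All 9 overlapping peaks lie above the line, beside many non-overlapping peaks of the same rank, and 5 of the 6 Runx3 peaks lie below it. This is not particular to Runx: over the whole list, 2.38% of the lowest 10% class by score and 24.4% of the highest overlapped a passage 5 peak.

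Runx2 had fewer coinciding peaks than Runx1, but the intervals of both shares overlap between these genes, so a difference is not shown. Of its 5 passage 5 peaks, 2 overlapped a passage 0 peak, or 40% (5.27% to 85.3%), against the background of 69.9%. Of its 25 passage 0 peaks, 2 had a passage 5 peak, or 8.0% (0.984% to 26.03%), against the background of 7.63%. That share was 4.76% among peaks with a score of at least 100. Applying the list's shares by score class gave 2.39 peaks. No passage 0 peak in the 1 Mb of flanks had a passage 5 peak, 0 of 49, which allows a share of up to 6.12% when 3 counts are taken as the limit of a count of 0; the exact interval reaches 7.25%.

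The coinciding sites of Runx2 lay in the middle part of the window. The passage 5 peak chr17:44814658-44815167, the highest of the gene with a score of 135, lay wholly inside the passage 0 peak chr17:44814327-44815341 with a score of 220. The peak chr17:44843437-44844005, with a score of 90.4, lay inside chr17:44843007-44844110, the second strongest Runx2 peak at passage 0 with 371. That passage 0 peak belonged to a run of 5 peaks with gaps of at most 5 kb, between bases 44839694 and 44851061. The same run held the strongest passage 0 peak of the gene, chr17:44849699-44851061, with a score of 427 and no passage 5 peak, the nearest being 5.69 kb away. The one next in score, which was the widest of the gene at 2601 bp, chr17:44664602-44667202, had a score of 364 and was 24.6 kb from any passage 5 peak.

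The 3 Runx2 sites called at passage 5 alone lay at most 4.93 kb from a passage 0 peak, in a window with 7.58 passage 0 peaks per 100 kb. The peaks chr17:44789819-44790453 and chr17:44791349-44791729, with scores of 124 and 105, lay 4.93 and 3.65 kb from the nearest one. The peak chr17:44691824-44692403, with a score of 89.6, lay 2.21 kb from one. Their scores exceeded 58.8%, 33.9% and 4.85% of the passage 5 list. Such distances are not given for the rest of that list, so the closeness of these 3 sites to passage 0 peaks is not shown to be particular. Absence from a list means that no peak was called there; whether 5hmC was present below the calling threshold cannot be read from the lists.

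No peak was called in the 5′ part of the Runx2 window at either passage. The first 94.7 kb from the 5′ border were empty at passage 0 and the first 113 kb at passage 5. The passage 0 peak nearest that border, chr17:44861247-44862284, had a score of 164 and no passage 5 peak. In 3 equal parts of 110 kb from 5′ to 3′, Runx2 had 0, 4 and 1 peaks at passage 5 and 3, 12 and 10 at passage 0. Runx1, in 3 equal parts of 78.7 kb, had 4, 1 and 4 peaks at passage 5 and 8, 14 and 11 at passage 0. The longest peak-free stretch of Runx1 at passage 0 was 31.0 kb. At the far 3′ border of Runx2, chr17:44627325-44628261 was called at passage 0 with a score of 90.3.

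Runx3 had few peaks at passage 0, but in the shortest window, with 8.70 per 100 kb against 7.58 at Runx2. Most of its peaks scored low within the list. From 5′ to 3′, its 6 passage 0 peaks lay at chr4:134672733-134673350 with a score of 93.2, chr4:134676808-134677551 with 85.0, chr4:134688755-134689297 with 101, chr4:134700831-134701594 with 104, chr4:134724256-134725676 with 194 and chr4:134726614-134727362 with 107. The fifth was also the widest at 1421 bp, and it alone scored above the median of the passage 0 list. Their median score was 102, against 163 for the 106 passage 0 peaks in the flanks of the gene. A count of 0 passage 5 partners among 6 peaks allows a share of up to 50% by the same limit of 3 counts, and the exact interval reaches 45.9%, so a share as high as that of Runx1 could not have been told from none at this number of peaks. Applying the list's shares by score class gave 0.252 peaks.

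Runs were formed from peaks with gaps of at most 5 kb. At passage 0, 31 of 33 Runx1 peaks fell into 9 runs, the longest of 6 peaks over 14.1 kb, at chr16:92674147-92688199. At Runx2, 19 of 25 peaks fell into 7 runs, and at Runx3, 4 of 6 into 2 runs. Over the whole passage 0 list, 57.4% of peaks lay in such runs, and in the flanks the shares were 77.5% for Runx1, 57.1% for Runx2 and 79.2% for Runx3. Denser regions have shorter gaps, so the runs are not shown to be particular to these genes. At passage 5, 6 of 9 Runx1 peaks stood in 2 runs of 3, and 2 of 5 Runx2 peaks in 1 run, against 16.2% of the whole passage 5 list. In the flanks, 0 of 13 passage 5 peaks of Runx1, 0 of 2 of Runx2 and 2 of 14 of Runx3 stood in runs. The Runx1 and Runx2 windows were denser than the autosomes at passage 5 too, so the same limit applies. The 6-peak run of Runx1 held 1 passage 5 peak, and the 4-peak run at its 5′ end, chr16:92820458-92830994, held 3.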

How the data were processed

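For each library the authors deposited a list of peaks with positions and a score. What the score measures is not stated, and it was used only within a list. Per the submitters' processing notes, Bowtie 0.12.7, MACS 1.4.1 and CASAVA 1.8 were used with build mm9, without a role for each. The calling threshold, duplicate handling and any input control are not stated. Read depth is unknown, and it affects how many and how wide peaks are called.

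Peaks sharing a base with a window were members, and shared peaks had at least 1 base in common. Covered bases were clipped to the window. Positions are mm9, counted from 1. Intervals are 95% exact (Clopper-Pearson) binomial. The peaks named are each passage 5 peak, the 3 highest-scoring, the widest and the highest-scoring unmatched passage 0 peak per gene, and peaks at the borders. Border peaks, the further peaks of Runx3 and run positions were added after the values were seen. No mm9 annotation was used, so pathway genes and genes of like pattern were not analysed here. Promoter sequences are RefSeq's on GRCm38.p6, matched by symbol for 3 of 3 genes. The members and lists were chosen with earlier results of these data known. Overlap counts were checked against bedtools 2.31.1 and on simulated lists. Python 3.11.15, numpy 2.4.6, pandas 2.3.3, scipy 1.17.1 and matplotlib 3.10.9 were used.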

Additional observations from a re-analysis of the deposited data

How the results depend on the processing

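All 78 recomputed values for 17 results stayed within the 95% interval used for the reported value. Of these, 1 changed direction: the passage 0 density of Runx3 over that of its flanks, 0.82 as reported, was 1.09 with flanks of 1 Mb. Covered bases have no counting interval of their own, so that of the peak-number ratio was scaled to them. For Runx3, with 0 passage 5 peaks, it was taken unscaled. With so few peaks the intervals are wide, so staying within them is no measure of robustness. Some values moved by over 1.5 times. With scores of at least 100 only, Runx2 covered bases at passage 5 were 6.69% of those at passage 0, and 4.76% of its passage 0 peaks overlapped a passage 5 peak. With the upper 50% by score from either list, the Runx2 peak number at passage 5 was 13.3% of that at passage 0 and the covered bases 6.42%. The passage 5 density of Runx2 over that of its flanks was 3.79 with flanks of 1 Mb and 4.55 for scores of at least 100. With windows widened by 10 kb, Runx3 gained 1 passage 5 peak and had 12.5%. For these moves the cause was not tested. For Runx1, the ratio of peak numbers ranged from 22.2% to 27.3% over the alternatives. Whether its interval excludes the list-wide ratio under them is not given. All its passage 5 peaks overlapped or neighboured a passage 0 peak wherever that share was computed, which leaves out the midpoint setting. Loosening the overlap rule could not lower a share already at 100%. Settings that widened Runx1 and Runx2 or used midpoints changed no count there. No paired analysis was possible because there was 1 library per passage, and no replicate could be left out.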

Other observations

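In the flanks of the Runx genes, the strongest passage 0 peak lay 442 kb from Runx3 on its 5′ side, at chr4:134223961-134228735, with a score of 1535, a width of 4775 bp and a passage 5 peak. The strongest passage 5 peak there, chr4:134550073-134550819, had a score of 267, above 98.2% of its list, and overlapped a passage 0 peak. Beside Runx2, the strongest passage 0 peak, chr17:45383257-45385221 with a score of 724, lay on the 5′ side and had no passage 5 peak. Beside Runx1, the strongest passage 0 peak was chr16:92420693-92424889, 171 kb away on the 3′ side with a score of 829, and it too had no passage 5 peak. Of the passage 0 peaks in the top 10% of the list by score, 7 of 13 in the flanks of Runx1, 0 of 6 in those of Runx2 and 7 of 21 in those of Runx3 had a passage 5 peak, against 24.4% of that class in the whole list.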
